A study of Mus musculus with 56 samples.

Results

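Triiodothyronine (T3), the active thyroid hormone, was given to hypothyroid wild-type mice and the transcripts of whole liver were compared with those of hypothyroid mice that did not receive it. The comparison used the 4 hypothyroid and 4 hyperthyroid wild-type RNA-seq libraries, 8 of the 12 RNA-seq libraries among the 56 samples of the series, and the members described here are the genes that these 8 libraries measured. All 8 livers came from male mice on a low-iodine diet with propylthiouracil (PTU), a drug that blocks the making of thyroid hormone. The hyperthyroid mice also had intraperitoneal T3 on the last days of the diet, while the hypothyroid mice had vehicle, so the diet and the drug were common to both groups and no euthyroid liver entered the comparison. The labels give neither the age nor the strain of these wild-type mice, and the study describes the 4 libraries of a group as biological replicates. Whole tissue was used, so each value mixes hepatocytes with the other cells of the liver.

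T3 enters the nucleus and binds thyroid hormone receptors, of which the beta form predominates in liver. These receptors sit on DNA, commonly as a pair with a retinoid X receptor, and exchange co-repressors for co-activators when T3 arrives. Hepatic T3 action is known for raising heat production, lipid synthesis and turnover, cholesterol clearance into bile and mitochondrial oxidation.

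Levels are given as RPKM, reads scaled to transcript length and to library size, and differences as the log2 fold change of hyperthyroid over hypothyroid liver after 0.1 RPKM was added to each value. Of 23813 genes, 13941 reached 0.1 RPKM in 4 or more libraries and were tested with limma. A gene is said to have risen or fallen where its Benjamini-Hochberg adjusted p over all genes tested was under 0.01. By that rule 3413 genes, or 24.5%, rose and 1075, or 7.71%, fell. With a log2 fold change over 1 in size as well, 1155 genes (8.28%) were higher and 484 (3.47%) were lower. Over all genes tested the log2 fold change had a median of 0.233 rather than 0. RPKM are shares of a library, and when the libraries were rescaled so that the median ratio over 9510 well-measured genes was equal, the median became 0.04, 1886 genes (13.5%) rose and 1735 (12.5%) fell, and 802 (5.76%) and 641 (4.6%) passed the fold threshold too. Both sets of counts are therefore given for each gene group, as deposited and rescaled. A list with counts and a median near these values is not set apart from all genes. Among the 62 genes whose higher group averaged over 1000 RPKM, 13 rose and 24 fell with a median of -0.26, whereas the 2912 genes under 1 RPKM had a median of 0.256.

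**Figure D1:**
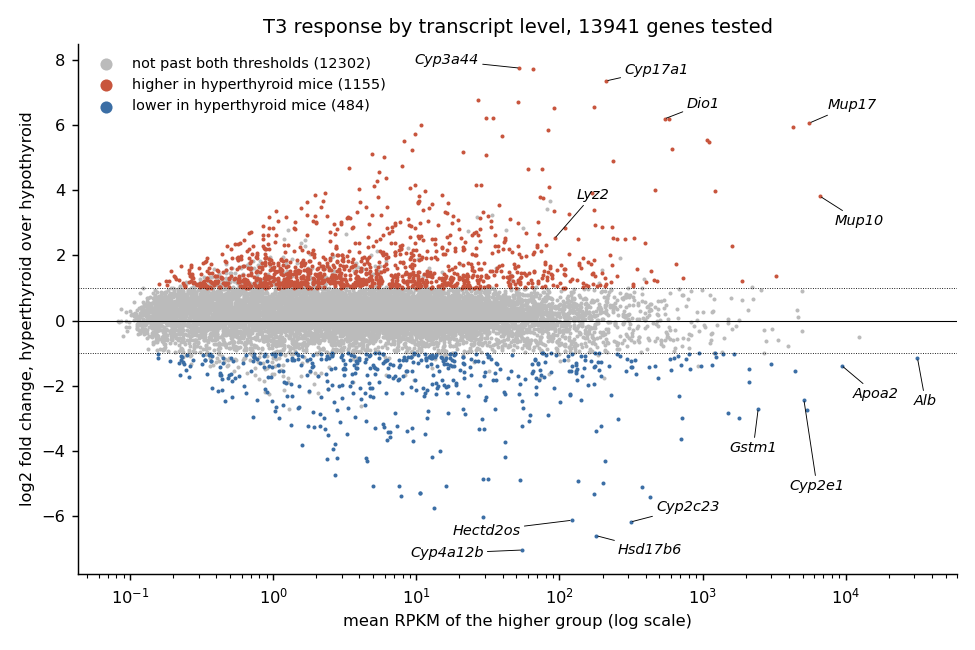
Each point is 1 of the 13941 genes tested, with the mean RPKM of its higher group on a log horizontal axis and the log2 fold change of hyperthyroid over hypothyroid liver on the vertical axis. Red points (1155) and blue points (484) passed both thresholds, and the dotted lines mark a log2 fold change of 1 in either direction.

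The 8 libraries separated by treatment. The principal component with the most variance carried 65.6% of it and placed the hypothyroid libraries between -57.91 and -38.75 and the hyperthyroid libraries between 42.13 and 54.16, and the lowest correlation within a group (r = 0.9707) was above the highest between groups (r = 0.9526). Hypothyroid replicate 3 stood apart. Over genes called without it, its median position was 14.5% of the way to the hyperthyroid group, against -4.54% to 4.06% for the other hypothyroid libraries. Without this library 2819 genes rose and 853 fell of 13810 tested, and counts of a gene list are also given without it where they changed by more than 1.5 times. Read depth could be compared only in relative terms, at 0.932 to 1.22 for the hypothyroid and 0.681 to 0.834 for the hyperthyroid libraries with hypothyroid replicate 1 set to 1. Of 20 hepatocyte identity genes all were expressed, with summed levels of 56100 to 72000 RPKM in hypothyroid and 32000 to 42900 RPKM in hyperthyroid liver.

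Genes that bring T3 to the cell, bind it or have long been used as readouts of it formed a list of 26 genes, of which 14 rose and 3 fell, with a median log2 fold change of 0.522 (rescaled, 11 rose and 5 fell, median 0.325). The receptor genes themselves did not pass the test. Thra was at 2.82 to 4.01 RPKM in hypothyroid and 3.61 to 4.17 RPKM in hyperthyroid liver (adjusted p = 0.25), and Thrb at 6.56 to 8.59 and 7.61 to 9.47 RPKM (adjusted p = 0.14). Dio1, the deiodinase that activates and clears thyroid hormone, was at 0.719, 6.64, 57.7 and 8.98 RPKM in hypothyroid replicates 1 to 4 and at 641, 533, 459 and 544 RPKM in hyperthyroid replicates 1 to 4. Replicate order is the same wherever 4 values are listed. The groups did not overlap, and hypothyroid replicate 3 lay above its 3 companions. Bcl3, a partner of NF-kB in the nucleus, was at 2.17, 6.48, 8.79 and 2.59 RPKM in hypothyroid and 71.8, 158, 66.9 and 41.8 RPKM in hyperthyroid liver. Every hyperthyroid value was above every hypothyroid value, with hyperthyroid replicate 2 the highest, and the log2 fold change was 4.11 ± 0.51 (SE, limma adjusted p = 0.00026). Gpd2 encodes the mitochondrial glycerol phosphate dehydrogenase, whose activity is a classic index of thyroid state. It was at 2.77, 4.97, 6.95 and 2.32 RPKM against 34.9, 34.9, 35.8 and 28.1 RPKM, without overlap (log2 fold change 3.07 ± 0.30, adjusted p = 7.7e-05). Me1, the malic enzyme that supplies NADPH for fatty acid synthesis, went from 15, 29.4, 34.1 and 18.8 RPKM to 152, 108, 129.6 and 146 RPKM, and these groups did not overlap either (log2 fold change 2.52 ± 0.24, adjusted p = 7.2e-05).

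The carriers of thyroid hormone in plasma went the other way. Serpina7, thyroxine-binding globulin, was at 54.3, 15.1, 14.5 and 33.8 RPKM in hypothyroid liver and at 0.084, 0.27, 0.318 and 0.666 RPKM in hyperthyroid liver. The lowest hypothyroid library was far above the highest hyperthyroid library, and the log2 fold change was -6.04 ± 0.51 (adjusted p = 3.6e-05). Ttr, which encodes transthyretin, fell from 4269, 4126, 3900.5 and 5350.3 RPKM to 1423, 1402, 1341 and 1843 RPKM (log2 fold change -1.55 ± 0.16, adjusted p = 0.00011). The groups did not overlap, and replicate 4 was the highest in each. Slco1b2, an organic anion transporter of the hepatocyte membrane, also fell (-0.64 ± 0.11, adjusted p = 0.0018).

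The canonical response element of the receptor pair is a direct repeat of AGGTCA spaced by 4 bases (DR4). RefSeq promoters of assembly GRCm38.p6, covering 250 bases before to 50 after each annotated start, were searched on both strands for stretches that kept at least 10 of the 12 bases of the repeat. Promoters were matched to 10854 of the 13941 tested genes by gene only, since the expression table was made on mm9. Of all 32851 promoters 3.02% held such a stretch, and of those of tested genes 2.87%. Among genes past both thresholds, 36 of 909 with a promoter (3.96%) had it for higher genes and 6 of 354 (1.69%) for lower genes, and it was in 0 of 20 promoters of the hormone list. A match of these letters is a description, not a bound site. The 3 higher genes shown carried it in promoters of proteins described further on, a drug-metabolizing P450, estrogen sulfotransferase and a bile acid exporter subunit; capitals mark the repeat, read 5′ to 3′ along the gene's strand.
Cyp3a44, chr5:145805984-145806049, minus strand: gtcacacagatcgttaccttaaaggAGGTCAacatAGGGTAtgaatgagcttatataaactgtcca
Sult1e1, chr5:87591694-87591759, minus strand: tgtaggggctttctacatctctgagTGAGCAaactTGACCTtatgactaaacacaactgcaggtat
Slc51b, chr9:65422946-65423011, minus strand: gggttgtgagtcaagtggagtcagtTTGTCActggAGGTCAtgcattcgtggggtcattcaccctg
In Sult1e1 the repeat runs on the opposite strand, and the first capital base lies 150, 123 and 213 bases before the start in Cyp3a44, Sult1e1 and Slc51b.

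The most abundant transcripts of the liver, among them those of secreted proteins, were redistributed. Alb, serum albumin, made up 6.97% to 9.04% of the summed RPKM in hypothyroid and 3.08% to 4.41% in hyperthyroid libraries. The 15 apolipoproteins went from 8.32% to 9.68% down to 6.28% to 7.27%, and 103 cytochrome P450 genes from 3.41% to 3.90% down to 1.68% to 1.97%. The 20 major urinary proteins, pheromone carriers made by the liver, went from 1.98% to 2.94% up to 4.86% to 6.81%, and 25 Serpina genes from 1.87% to 2.55% up to 2.59% to 3.20%. For none of these 5 groups did the hypothyroid and hyperthyroid libraries overlap. The 20 genes with the highest mean held 24.8% to 27.6% in hypothyroid and 19.4% to 22.8% in hyperthyroid liver.

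**Figure D2:**
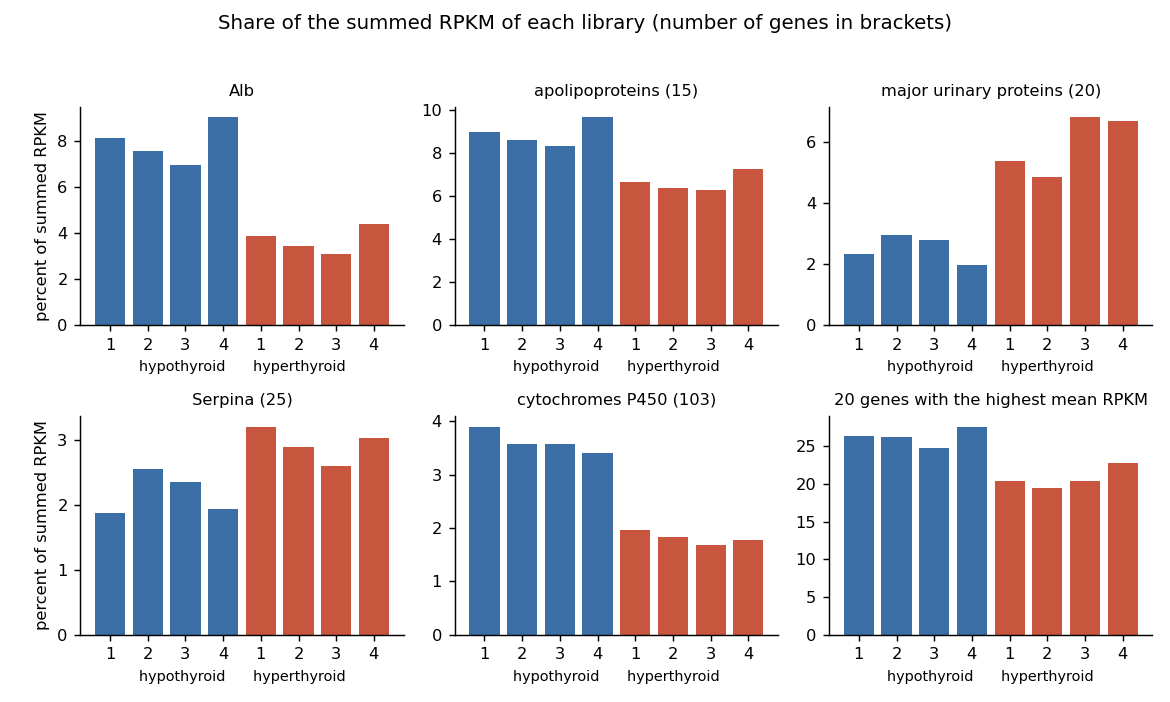
Bars give the percent of a library's summed RPKM taken by each group of genes, from 0, for the 4 hypothyroid (blue) and 4 hyperthyroid (red) libraries. Alb, the apolipoproteins and the cytochromes P450 took less in every hyperthyroid library, and the major urinary proteins took more.

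Alb was at 32424, 30152, 27356 and 37284 RPKM in hypothyroid and at 14947, 13257, 11609 and 17486 RPKM in hyperthyroid liver. The groups did not overlap and the log2 fold change of Alb was -1.16 ± 0.28 (limma adjusted p = 0.0082), but this call was narrow, at an adjusted p of 0.025 after rescaling and 0.019 without hypothyroid replicate 3. Apoa2, a protein of high-density lipoprotein, fell as well (-1.39 ± 0.20, adjusted p = 0.00058). Hpx, hemopexin, which binds free heme, rose from 1260 ± 40.7 to 3270 ± 554 RPKM (SD, n = 4 each; log2 fold change 1.36 ± 0.15, adjusted p = 0.00013). Other secreted proteins that rose were Ahsg, fetuin-A, at 0.90 ± 0.15 (adjusted p = 0.0015, and 0.014 rescaled) and Serpina1b, an alpha-1-antitrypsin, at 0.94 ± 0.12 (adjusted p = 0.00035).

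Of the 20 major urinary protein genes 17 rose and 2 fell, with a median log2 fold change of 3.83 (rescaled, 17 and 2, median 3.63). Their coding sequences are nearly identical. The study used uniquely aligned reads, so reads that fit more than 1 member may be missing, and single members are uncertain. Mup10 was at 162, 629, 1659.7 and 285 RPKM in hypothyroid and at 7292, 6200.0, 6268 and 6779 RPKM in hyperthyroid liver. Here hypothyroid replicate 3 was again the highest of its group, yet below every hyperthyroid library (3.82 ± 0.60, adjusted p = 0.00092). The members that fell were Mup20, also called darcin, a male pheromone protein, and Mup21. Mup20 was at 6417, 6483, 4006 and 4713 RPKM against 817, 429, 766 and 1479 RPKM (-2.74 ± 0.34, adjusted p = 0.00028). Mup21 was at 212, 349.6, 489 and 466 RPKM against 8.44, 8.93, 13.2 and 11 RPKM (-5.13 ± 0.26, adjusted p = 4.1e-06). In both, all hypothyroid values were above all hyperthyroid values. Mup3 did not pass, at 3040 ± 716 and 2520 ± 472 RPKM (SD, n = 4 each; adjusted p = 0.33).

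Many liver genes differ between the sexes, an effect known to be set by the pattern of growth hormone release and carried by the signal transducers STAT5A and STAT5B. In these male livers T3 raised 12 of 25 genes listed as female-biased and lowered 5, with a median log2 fold change of 1.42 (rescaled, 12 and 5, median 1.23). Of 22 genes listed as male-biased, 3 rose and 7 fell with a median of -0.97 (rescaled, 3 and 10, median -1.17). All of the male-biased genes that changed did so by more than 1 on the log2 scale, in either direction, and so did 12 of the 12 female-biased genes that rose. The change did not follow sex bias throughout, as the falling female-biased and rising male-biased genes show.

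**Figure D3:**
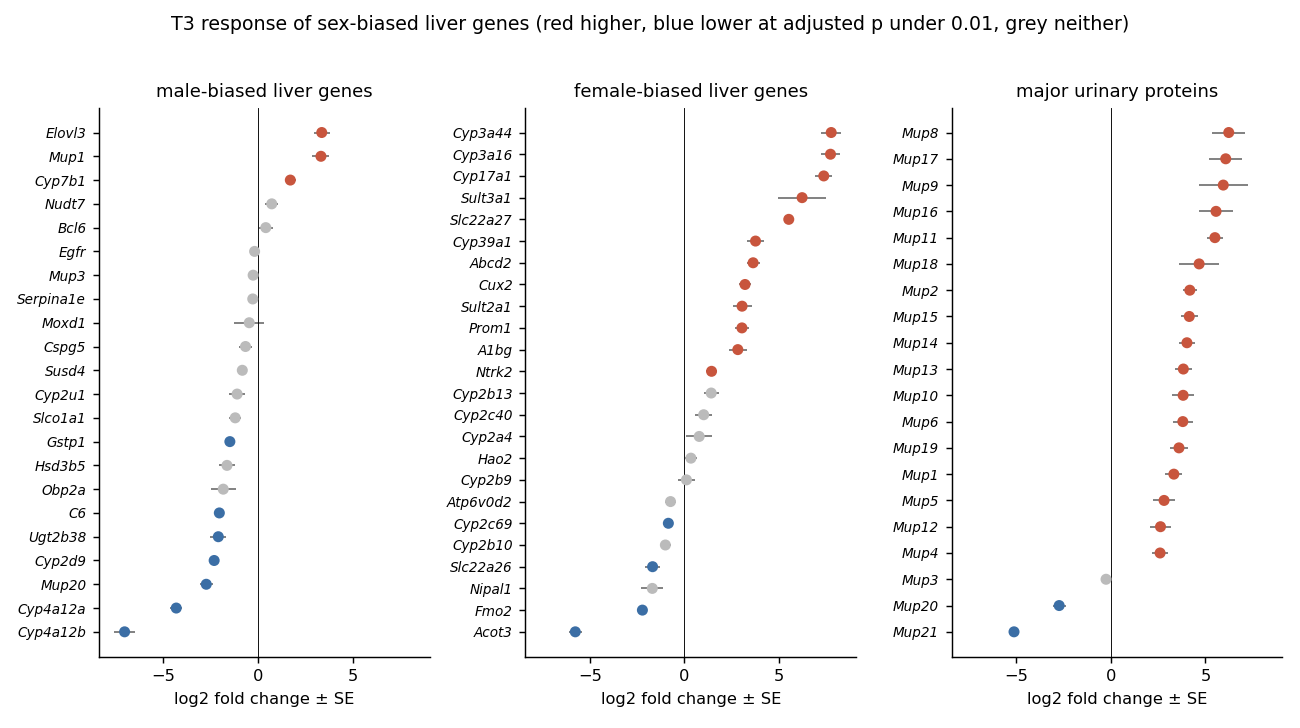
Log2 fold change of hyperthyroid over hypothyroid liver with its standard error for the male-biased, female-biased and major urinary protein genes tested, ordered by size, with 1 female-biased gene not drawn. Red points rose and blue points fell at an adjusted p under 0.01, and grey points did neither; 12 female-biased genes are red and 7 male-biased genes are blue.

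Cyp17a1, the steroid hydroxylase and lyase, was among the female-biased genes that rose, from 0.748, 0.491, 2.45 and 1.58 RPKM to 315, 179.6, 119.6 and 235 RPKM. The groups were separated by a wide gap (7.37 ± 0.46, adjusted p = 9.1e-06). Cyp3a44 was at 0.115, 0.247, 0.07 and 0.027 RPKM in hypothyroid and 61.7, 93.8, 38.9 and 15.7 RPKM in hyperthyroid liver. It had no overlap either (7.76 ± 0.52, adjusted p = 1.2e-05), though reads that also fit its closest relatives in the Cyp3a cluster may be missing. Cux2, a transcription factor of female liver named after its value was seen, rose by 3.20 ± 0.34 (adjusted p = 0.00011). Cyp4a12b, a fatty acid hydroxylase of male liver, fell from 67.1, 55.9, 43.9 and 52.7 RPKM to 0.167, 0.05, 0.413 and 1.25 RPKM (-7.06 ± 0.56, adjusted p = 2.8e-05), again without overlap. Elovl3, a fatty acid elongase that is male-biased, rose by 3.37 ± 0.43 (adjusted p = 0.00029).

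Along the growth hormone and insulin-like growth factor axis 5 of 18 genes rose and 2 fell with a median of 0.292, close to the share and median of all genes (rescaled, 3 and 4, median 0.09). Stat5a was at 1.11, 1.48, 2.13 and 1.3 RPKM in hypothyroid and 16.1, 16.7, 14.7 and 15.7 RPKM in hyperthyroid liver (3.34 ± 0.17, adjusted p = 4.1e-06). Stat5b was at 7.96, 6.48, 8.42 and 8.71 RPKM against 28.1, 30.5, 25 and 24 RPKM (1.76 ± 0.11, adjusted p = 1e-05). Neither gene had overlapping groups, and the hyperthyroid replicates were close to each other. The growth hormone receptor Ghr fell by 0.98 on the log2 scale (SE 0.09, adjusted p = 6.7e-05), and Igfals, which stabilizes insulin-like growth factors in plasma, fell by 0.62 (SE 0.10, adjusted p = 0.0014). Igfbp1, a stress-responsive binding protein of those factors, was at 32.1, 2.76, 10.7 and 26.2 RPKM against 98.8, 409, 132 and 59.3 RPKM. Hyperthyroid replicate 2 was far above the rest, and the call (3.39 ± 0.80, adjusted p = 0.0072) was lost after rescaling (adjusted p = 0.014) and without that library, where the log2 fold change of Igfbp1 was 2.85 (adjusted p = 0.016).

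Genes of cholesterol synthesis and uptake rose, 16 of 24, while 0 fell, with a median log2 fold change of 1.01 (rescaled, 15 rose and 1 fell, median 0.81). Sqle, squalene epoxidase, was at 10.8, 16.8, 23.8 and 13.7 RPKM in hypothyroid and 94.7, 56.7, 77.8 and 92.9 RPKM in hyperthyroid liver. These did not overlap (2.33 ± 0.24, adjusted p = 0.0001). Mvd, mevalonate diphosphate decarboxylase, was at 7.25, 9.3, 9.21 and 8.37 RPKM against 35.6, 23.5, 28.5 and 30.8 RPKM, also apart (1.77 ± 0.13, adjusted p = 2.1e-05). Idi1, the isomerase of the next step, rose by 1.53 ± 0.27 (adjusted p = 0.0017), and Sc5d, a sterol desaturase, by 1.37 ± 0.19 (adjusted p = 0.00044). Srebf2, the transcription factor of the pathway, named after its value was seen, rose by 1.32 ± 0.11 (adjusted p = 2.8e-05).

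Sterol-responsive promoters commonly pair a sterol element with a CCAAT box, the site of NF-Y. The letters CCAAT, on either strand, were in 15 of the 17 promoters of the list that could be matched (88.2%), in 37.4% of all promoters and in 42.7% of the promoters of tested genes, and in 11 of the 12 promoters whose gene rose. The sterol element, TCAC and CCAC with 1 base between them, also on either strand, was in 0 of 17, against 1.24% of all promoters and 1.42% of those of tested genes, and CACGTG was in 5 of 17, against 7.15% and 11.5%. The 4 stretches below come from the members described above and show the pentamer in capitals, on the gene's strand in Mvd and on the other strand, as ATTGG, in the rest.
Mvd, chr8:122443420-122443474, minus strand: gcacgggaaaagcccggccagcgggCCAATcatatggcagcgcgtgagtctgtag
Idi1, chr13:8885567-8885621, plus strand: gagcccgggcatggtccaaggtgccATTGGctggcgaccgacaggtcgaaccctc
Sc5d, chr9:42264295-42264349, minus strand: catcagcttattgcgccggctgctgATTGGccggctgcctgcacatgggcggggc
Srebf2, chr15:82147109-82147163, plus strand: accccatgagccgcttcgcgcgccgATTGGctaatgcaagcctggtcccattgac
The first capital base lies 27, 14, 24 and 135 bases before the start in Mvd, Idi1, Sc5d and Srebf2. The match is a description of the letters and says nothing of which factor was bound. CCAAT was not particular to this list. It was in 12 of 14 clock promoters (85.7%) and 19 of 24 of the endoplasmic reticulum list (79.2%), but in 3 of 19 acute phase promoters (15.8%).

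Genes of bile acid synthesis and transport, sterol export included, rose in 9 of 19 cases with 1 lower and a median of 0.65 (rescaled, 8 and 3, median 0.45). Abcg8, whose protein pairs with ABCG5 to move cholesterol into bile, was at 29.4, 35.9, 39 and 28.6 RPKM against 103, 91.5, 104 and 88.5 RPKM. The groups did not overlap (1.55 ± 0.11, adjusted p = 1.9e-05). Slc51b, a subunit of the basolateral bile acid exporter, was listed at 0, 0.4, 0.355 and 0.216 RPKM and at 5.68, 3.38, 1.36 and 5.7 RPKM (3.63 ± 0.58, adjusted p = 0.001). It too had separate groups, at low levels. Abcb4, the phospholipid exporter, rose by 1.42 ± 0.16 (adjusted p = 0.00017), and Nr0b2, a repressor of bile acid synthesis, fell by 1.11 on the log2 scale (SE 0.21, adjusted p = 0.0025). Cyp7a1, the rate-limiting enzyme of bile acid synthesis, ranged from 16.3 to 39.5 RPKM in hypothyroid and from 16.3 to 117 RPKM in hyperthyroid liver, and its difference of 1.03 ± 0.55 did not pass (adjusted p = 0.14).

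Fatty acid synthesis and oxidation were less uniform. Of 21 lipogenic genes 7 rose and 1 fell with a median of 0.44 (rescaled, 5 and 2, median 0.24), and 0 fell without hypothyroid replicate 3. Pnpla3, a lipase of lipid droplets, was at 0.103, 0.131, 0.147 and 0.118 RPKM against 12.3, 13.5, 3.86 and 7.51 RPKM. Hypothyroid libraries were close to the detection limit and the groups were far apart (5.24 ± 0.35, adjusted p = 1.2e-05). Scd1, the stearoyl-CoA desaturase and the most abundant lipogenic transcript, was at 933 ± 97.6 and 434 ± 294 RPKM (SD, n = 4 each) and did not pass (-1.40 ± 0.46, adjusted p = 0.031). Of 18 genes of mitochondrial fatty acid oxidation 2 rose and 5 fell with a median of -0.08 (rescaled, 0 and 6, median -0.28). Acadm, the medium-chain acyl-CoA dehydrogenase, fell by 1.27 on the log2 scale (SE 0.11, adjusted p = 3.4e-05). Of 24 peroxisomal genes and targets of the fatty acid receptor PPARA 5 rose and 8 fell with a median of -0.21 (rescaled, 3 and 10, median -0.41). The acyl-CoA thioesterase Acot3 was at 18, 7.42, 8.81 and 18.9 RPKM against 0.092, 0.107, 0.271 and 0.074 RPKM (-5.77 ± 0.35, adjusted p = 9.1e-06). Its relatives Acot1 (-3.26 ± 0.28, adjusted p = 4.1e-05) and Acot4 (-2.31 ± 0.16, adjusted p = 1.7e-05) fell with it. By contrast, the lipid droplet gene Plin2 rose by 1.20 ± 0.17 (adjusted p = 0.00046) and Cyp4a31 by 5.08 ± 0.30 (adjusted p = 7.5e-06).

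Lipoprotein genes showed no common direction, as 4 of 23 rose and 5 fell with a median of 0.06 that turned to -0.14 after rescaling (3 and 5). Apoa4, an apolipoprotein that accompanies triglyceride secretion, was at 44.1, 58, 67.7 and 57.7 RPKM against 343, 422, 311 and 246 RPKM and did not overlap (2.53 ± 0.18, adjusted p = 1.6e-05). Mttp, which loads triglyceride onto apolipoprotein B, rose by 1.02 ± 0.10 (adjusted p = 6.9e-05), whereas Apoa5, a plasma activator of lipoprotein lipase, fell by 1.09 on the log2 scale (SE 0.13, adjusted p = 0.00021).

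**Figure D4:**
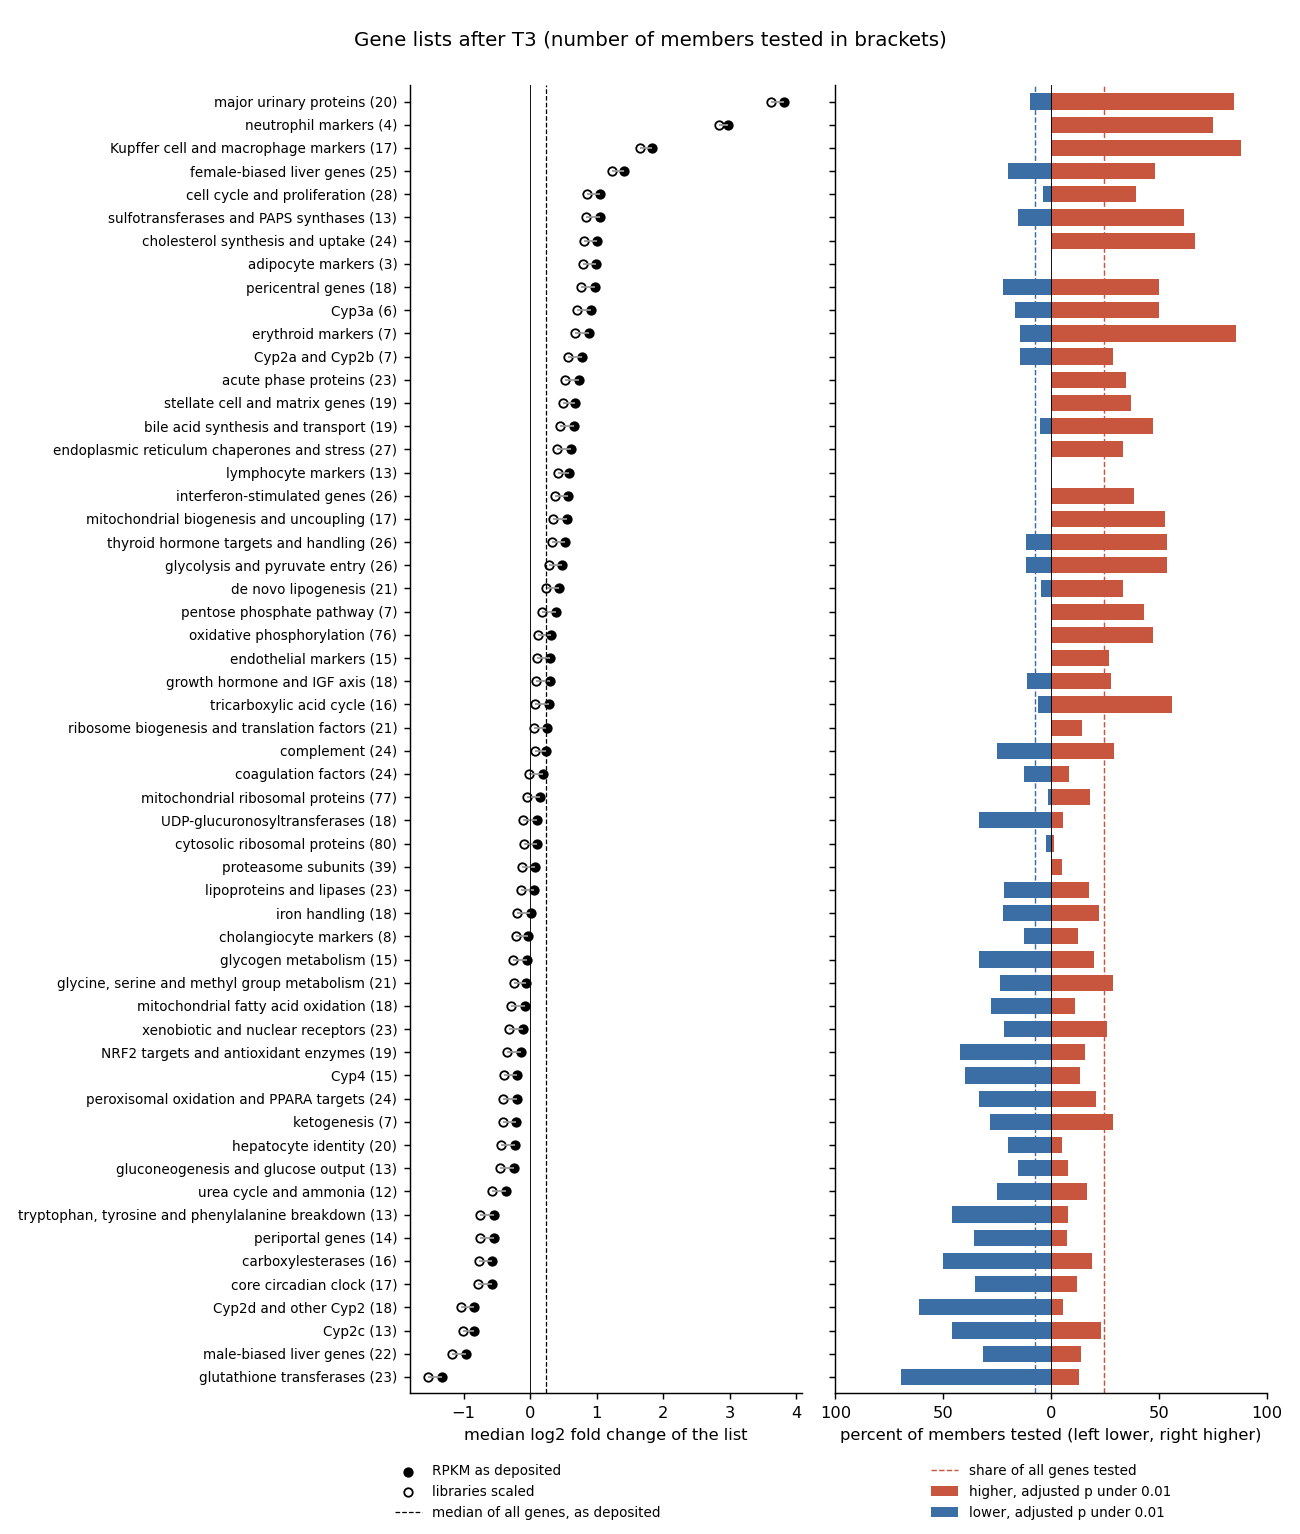
Left, the median log2 fold change of the tested members of each gene list, as deposited (filled) and after rescaling (open), with the median of all genes (0.233) as a dashed line; medians near 0 change sign between the filled and open points. Right, the percent of tested members that rose (red) or fell (blue), with the shares of all genes, 24.5% and 7.71%, as dashed lines. Major urinary proteins sit at the top (median 3.83) and glutathione transferases at the bottom (median -1.33).

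Genes of carbohydrate use moved in both directions. In glycolysis and pyruvate entry 14 of 26 genes rose and 3 fell (median 0.48), of which 7 rose and 5 fell after rescaling (median 0.28). Pdhb, a subunit of pyruvate dehydrogenase, rose from 46 ± 7.97 to 142 ± 25.4 RPKM (SD, n = 4 each; 1.62 ± 0.15, adjusted p = 6.3e-05), and Pdk1, an inhibitory kinase of that complex, fell by 1.24 on the log2 scale (SE 0.20, adjusted p = 0.001). Of its relatives, Pdk2 fell by 0.63 (SE 0.12, adjusted p = 0.002), and Pdk4 rose by 1.70 ± 0.40 (adjusted p = 0.0067) but missed the threshold after rescaling (adjusted p = 0.017) and without hypothyroid replicate 3 (adjusted p = 0.019). Mpc2, part of the mitochondrial pyruvate carrier, rose by 0.88 ± 0.07 (adjusted p = 2.7e-05). In gluconeogenesis 1 of 13 rose and 2 fell (median -0.24, with 1 and 2 and -0.45 rescaled). Fbp1, a control point of that pathway, fell by 1.35 (SE 0.14, adjusted p = 8.2e-05), and Pck1, its entry enzyme, was at 1040 ± 220 and 914 ± 220 RPKM (SD, n = 4 each; adjusted p = 0.46). Among 15 glycogen genes 3 rose and 5 fell (median -0.05, with 2 and 6 and -0.26 rescaled). Gys2, the liver glycogen synthase, was at 166, 113, 105 and 139 RPKM against 48.4, 36.1, 43.2 and 41.9 RPKM, with no overlap (-1.61 ± 0.15, adjusted p = 5.7e-05). Ugp2, which makes the sugar donor for glycogen, fell by 1.44 on the log2 scale (SE 0.18, adjusted p = 0.00031), and Pygl, the phosphorylase that breaks glycogen down, rose by 0.92 ± 0.16 (adjusted p = 0.0015).

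Mitochondrial gene lists differed in how many members rose. In oxidative phosphorylation 36 of 76 genes rose and 0 fell, with a median of 0.32 and 1 gene beyond a log2 fold change of 1. After rescaling 10 rose, near the 13.5% of all genes, and 0 fell with a median of 0.12, so most of these small rises depended on how the libraries were scaled. Ndufa1, a subunit of complex I, rose by 0.87 ± 0.09 (adjusted p = 7.2e-05) and Cox5a, of complex IV, by 0.88 ± 0.13 (adjusted p = 0.00056), and both passed after rescaling at adjusted p of 0.00018 and 0.002. Of 16 genes of the tricarboxylic acid cycle 9 rose and 1 fell with a median of 0.28 (rescaled, 4 and 1, median 0.08). Idh3a, the catalytic subunit of the NAD-dependent isocitrate dehydrogenase, was at 7.57, 10.8, 11.7 and 6.72 RPKM against 65.2, 52.1, 55.9 and 60.4 RPKM. It stood far apart between the groups (2.68 ± 0.17, adjusted p = 1e-05), as did Cs, citrate synthase (1.51 ± 0.12, adjusted p = 2.4e-05). The succinate dehydrogenase subunits Sdha and Sdhb did not pass, with differences of -0.08 ± 0.07 and 0.01 ± 0.10 (adjusted p = 0.32 and 0.92). Ucp2, an uncoupling protein of the inner membrane, rose by 1.59 ± 0.12 (adjusted p = 2.3e-05). Of 77 mitochondrial ribosomal proteins 14 rose and 1 fell, a share below that of all genes (rescaled, 5 and 5), with a median that went from 0.15 to -0.05.

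**Figure D5:**
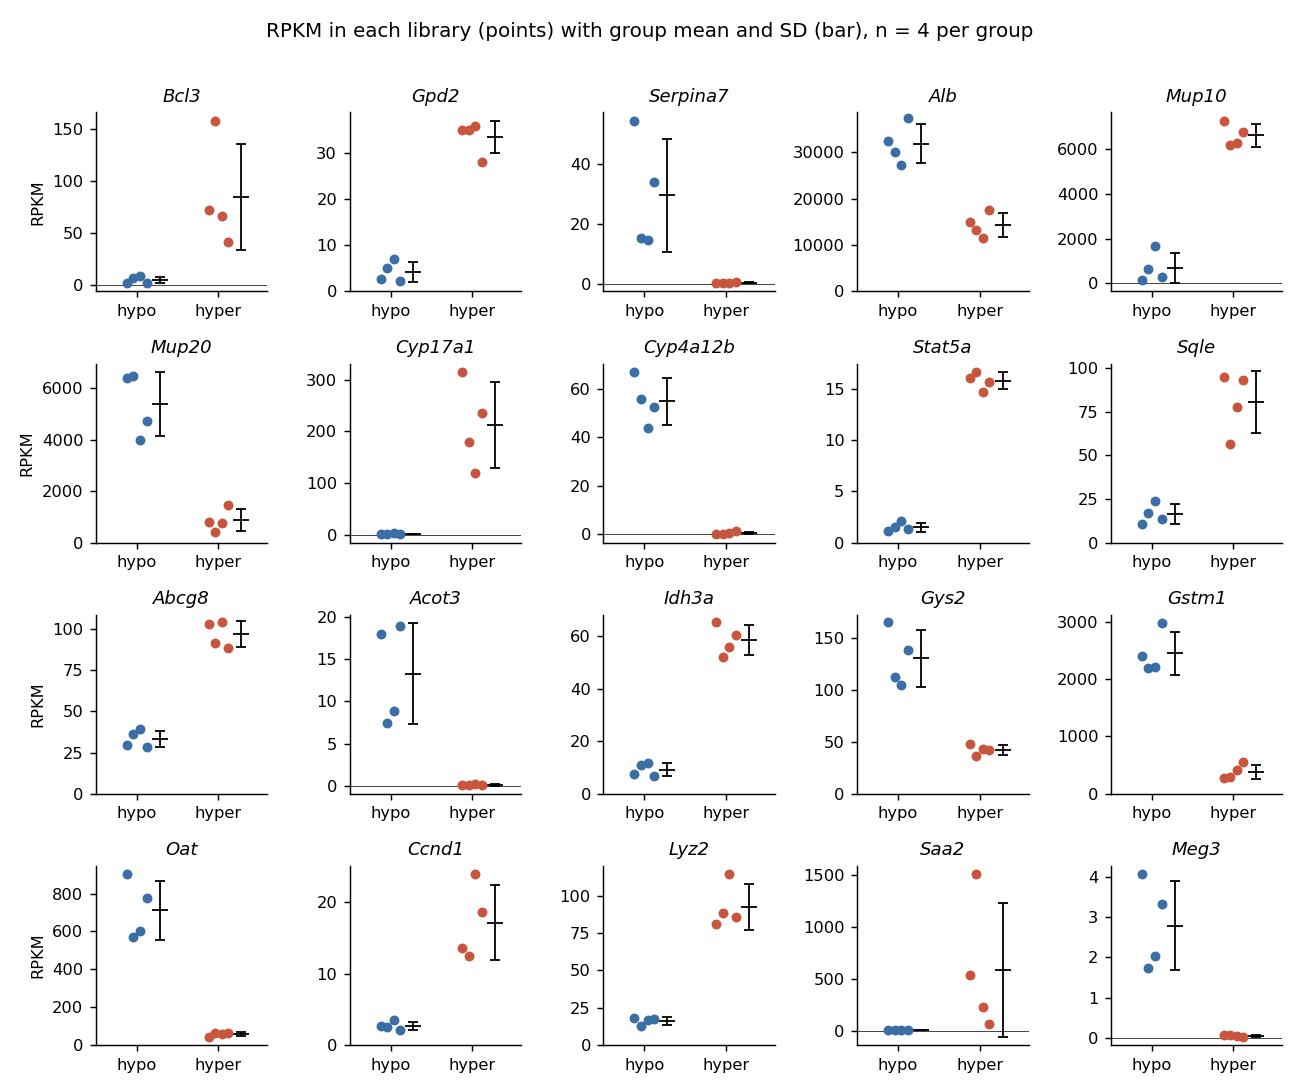
RPKM in each library (points) with the group mean and SD (bars, n = 4 per group) for 20 genes described in the text, hypothyroid in blue and hyperthyroid in red. In all 20 panels the groups do not overlap, which also holds for 46.6% of all genes tested and was in part required for naming. Saa2 and Bcl3 show 1 hyperthyroid library, replicate 2, well above the others.

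Enzymes that handle drugs and other foreign compounds moved in both directions, and the families differed in their counts. Of 23 glutathione transferases, which conjugate electrophiles, 16 fell and 3 rose, with a median log2 fold change of -1.33 (rescaled, 16 and 2, median -1.54). Gstm1 was at 2407, 2184, 2213 and 2983 RPKM in hypothyroid and 282, 297, 412 and 547 RPKM in hyperthyroid liver. The groups were fully separated (-2.71 ± 0.22, adjusted p = 2.8e-05), while Gstt1, of the theta class, rose by 1.75 ± 0.16 (adjusted p = 5.7e-05). Members of one class are alike in sequence, so reads that fit more than 1 of them may be missing. Of the 18 genes of Cyp2d and the smaller Cyp2 families 11 fell and 1 rose with a median of -0.84 (rescaled, 11 and 0, median -1.04; 0 rose without hypothyroid replicate 3), and of 13 Cyp2c genes 6 fell and 3 rose with a median of -0.85 (rescaled the same numbers, median -1.01). Cyp2e1, the ethanol-inducible P450, was at 5949.9, 4641, 4873 and 4976 RPKM against 795, 1082, 1082 and 833 RPKM (-2.44 ± 0.16, adjusted p = 1.1e-05). Cyp2c23, an arachidonic acid epoxygenase, was at 340.3, 315, 259.7 and 345 RPKM against 2.42, 3.82, 4.14 and 7.88 RPKM (-6.19 ± 0.29, adjusted p = 3e-06). Neither pair of groups overlapped. Of 6 Cyp3a genes 3 rose and 1 fell (median 0.91, with 3 and 2 and 0.71 rescaled). Among 7 Cyp2a and Cyp2b genes 2 rose and 1 fell (median 0.78, with 2 and 1 and 0.57 rescaled). That share of risen genes was close to the 24.5% of all genes. The Cyp4 family, given in the closing section, had 2 of 15 higher and 6 lower. Cyp2a12, a steroid hydroxylase, rose by 1.23 ± 0.14 (adjusted p = 0.00015), and Cyp2a5, which hydroxylates coumarin, fell by 1.40 (SE 0.19, adjusted p = 0.00039).

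Of 16 carboxylesterases, which hydrolyze esters and amides, 8 fell and 3 rose with a median of -0.57 (rescaled, 9 and 2, median -0.78). Ces1f was at 266, 251, 239 and 268 RPKM against 20.6, 32.5, 40.2 and 35.3 RPKM, apart in all libraries (-3.03 ± 0.18, adjusted p = 7.5e-06), and Ces4a rose by 5.87 ± 0.81 (adjusted p = 0.00047). Sulfotransferases and the enzymes that make their sulfate donor moved mostly up, with 8 of 13 higher and 2 lower and a median of 1.05 (rescaled, 7 and 2, median 0.84). Sult1e1, estrogen sulfotransferase, whose promoter is shown above, was at 1.02, 0.385, 0.52 and 0.896 RPKM against 176, 106, 19.5 and 65.2 RPKM. Its hyperthyroid values varied widely and all lay above the hypothyroid ones (6.52 ± 0.60, adjusted p = 5.4e-05). Papss2, the donor synthase, rose from 39.9 ± 6.05 to 235 ± 61.5 RPKM (SD, n = 4 each; 2.53 ± 0.18, adjusted p = 1.6e-05). Of 18 glucuronosyltransferases 6 fell and 1 rose, with a median of 0.10 that turned to -0.10 after rescaling (7 and 1). The exception was Ugt2b37 (6.73 ± 0.51, adjusted p = 2.2e-05).

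The receptors that control such enzymes moved in both directions. Of 23 nuclear receptors 6 rose and 5 fell, against 24.5% and 7.71% of all genes, with a median of -0.11 (rescaled, 4 and 9, median -0.31). The share that rose was near that of all genes, and 3 fell without hypothyroid replicate 3. Nr1i3, the constitutive androstane receptor, a sensor of foreign compounds, was at 201, 151, 151 and 188 RPKM against 56.5, 37.2, 38.5 and 45.4 RPKM. The groups did not overlap (-1.97 ± 0.15, adjusted p = 2.3e-05). Esr1, estrogen receptor alpha, was at 1.46, 1.25, 2.12 and 2.17 RPKM against 15.2, 8.11, 6.13 and 9.53 RPKM and rose (2.37 ± 0.28, adjusted p = 0.00019). Ppard, a fatty acid receptor, rose by 2.51 ± 0.20 (adjusted p = 2.8e-05), and its relative Pparg fell by 1.35 on the log2 scale (SE 0.16, adjusted p = 0.00021).

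Hepatocytes differ along the lobule, and genes of both ends changed without a single direction. Of 18 pericentral genes, those around the central vein, 9 rose and 4 fell with a median of 0.97 (rescaled, 7 and 4, median 0.77), and of 14 periportal genes 1 rose and 5 fell with a median of -0.55 (rescaled, 1 and 5, median -0.76). Oat, ornithine aminotransferase, which sits beside glutamine synthetase in pericentral cells, was at 904, 569, 601 and 775 RPKM against 42.3, 61.9, 57.6 and 64.9 RPKM, with no overlap (-3.64 ± 0.18, adjusted p = 3.8e-06). Glul, glutamine synthetase itself, was at 125, 158, 203 and 135 RPKM against 431, 367, 258 and 248 RPKM. It rose without overlap (1.06 ± 0.21, adjusted p = 0.0031) but missed the threshold after rescaling (adjusted p = 0.014). Lgr5, a receptor of the Wnt pathway that patterns the pericentral zone, was at 0.706, 0.547, 0.729 and 0.744 RPKM against 2.02, 2.57, 2.1 and 1.47 RPKM (1.44 ± 0.18, adjusted p = 0.00027). Axin2, a Wnt target, rose by 1.27 ± 0.21 (adjusted p = 0.0012), while Cyp1a2, pericentral as well, fell by 2.99 (SE 0.37, adjusted p = 0.00026). In whole liver, fewer cells of a type and less RNA per cell cannot be told apart, and the same holds for more.

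Amino acid genes moved in both directions. Of 13 genes that break down tryptophan, tyrosine and phenylalanine 6 fell and 1 rose with a median of -0.55 (rescaled, 7 and 0, median -0.75), but 3 fell without hypothyroid replicate 3. Tdo2, which opens the tryptophan ring, fell by 0.99 on the log2 scale (SE 0.12, adjusted p = 0.00026) and Hpd, of tyrosine breakdown, by 1.02 (SE 0.14, adjusted p = 0.00045). In the urea cycle and ammonia list 2 of 12 rose and 3 fell (median -0.37, with 0 and 4 and -0.57 rescaled), and Asl, argininosuccinate lyase, fell by 0.97 (SE 0.18, adjusted p = 0.0024). Glycine and methyl group genes split into 6 higher and 5 lower of 21 (median -0.07, with 4 and 7 and -0.24 rescaled). Gldc, of the glycine cleavage system, rose by 1.48 ± 0.09 (adjusted p = 9.1e-06), and Gnmt, which disposes of methyl groups, fell by 1.48 (SE 0.20, adjusted p = 0.00038). Without hypothyroid replicate 3 the lower count in this list was 3.

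Among iron genes 4 of 18 rose and 4 fell (median 0.01, with 3 and 5 and -0.20 rescaled). Hamp2, a relative of hepcidin, was at 220.2, 85.4, 125 and 381 RPKM against 7.71, 4.59, 3.25 and 7.16 RPKM, far apart (-4.99 ± 0.45, adjusted p = 4.9e-05), and Slc40a1, the iron exporter ferroportin, rose by 0.98 ± 0.11 (adjusted p = 0.00016). Antioxidant genes fell in 8 and rose in 3 of 19 (median -0.15, with 9 and 3 and -0.35 rescaled), with Nqo1, a quinone reductase, lower by 1.68 (SE 0.17, adjusted p = 9e-05) and the glutathione peroxidase Gpx1 higher by 1.20 ± 0.14 (adjusted p = 0.00022). Of 17 clock genes 2 rose and 6 fell (median -0.58, with 2 and 7 and -0.78 rescaled), 4 of them without hypothyroid replicate 3. Arntl, the BMAL1 subunit of the clock activator, was at 1.08, 0.606, 0.487 and 0.512 RPKM against 2.06, 4.45, 3.08 and 2.4 RPKM (2.01 ± 0.28, adjusted p = 0.00052). Its partner Clock rose by 1.40 ± 0.16 (adjusted p = 0.00017), and Bhlhe41, a repressor, fell by 2.70 (SE 0.36, adjusted p = 0.00038). The hour of tissue collection of each animal is not given in the sources used here, and its part in these values was not tested.

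Genes of cell growth and protein folding rose in part. Of 28 cell cycle genes 11 rose and 1 fell with a median of 1.05 (rescaled, 10 and 1, median 0.86). Most of the list did not pass. The letters TTTGAA, on either strand, were in 9 of 22 promoters of the list, against 17.9% of all promoters and 14.7% of those of tested genes. These 9 were the promoters of Mki67, Top2a, Ccnb2, Cdk1, Cdc20, Aurka, Plk1, Bub1b and Mcm2. Of these 9 genes, picked by that match, 2 rose, close to the 24.5% of all genes, and they do not stand for the whole list. Ccnd1, cyclin D1, was at 2.6, 2.48, 3.51 and 2.08 RPKM against 13.6, 12.4, 24 and 18.6 RPKM, without overlap (2.62 ± 0.22, adjusted p = 3.6e-05). Cdkn1a, the cell cycle inhibitor p21, was at 6.21, 2.24, 2.52 and 2.66 RPKM against 19.1, 51.6, 28.5 and 27.8 RPKM, and it rose without overlap as well (3.21 ± 0.36, adjusted p = 0.00015). Rrm2, a subunit of ribonucleotide reductase, rose by 2.58 ± 0.23 (adjusted p = 5e-05) and Ccne1, cyclin E1, by 2.22 ± 0.24 (adjusted p = 0.00013). Thymidine kinase, Tk1, fell by 0.58 (SE 0.12, adjusted p = 0.0035), and without hypothyroid replicate 3 no gene of the list did. By comparison, 80 cytosolic ribosomal proteins held 1 that rose and 2 that fell (median 0.10, with 0 and 3 and -0.10 rescaled), of which 1 fell without hypothyroid replicate 3, and 39 proteasome subunits held 2 that rose and 0 that fell (median 0.07), which became 0 and 10 with a median of -0.13 after rescaling and 0 and 0 without hypothyroid replicate 3.

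Of 27 chaperones and stress genes of the endoplasmic reticulum 9 rose and 0 fell with a median of 0.61 (rescaled, 7 and 0, median 0.40). Atf5, a stress transcription factor, was at 58.9, 63, 117 and 71.6 RPKM against 268, 407, 514 and 396 RPKM (2.37 ± 0.25, adjusted p = 0.0001). Dnajc3, a co-chaperone that curbs stress signaling, was at 51.7, 59.9, 55.8 and 50.2 RPKM against 90.1 to 118 RPKM (0.91 ± 0.10, adjusted p = 0.0001). In neither gene did the groups overlap. Hspa5, the master chaperone, did not pass (0.61 ± 0.21, adjusted p = 0.037). The endoplasmic reticulum stress element, CCAAT and CCACG with 9 bases between them, was in 7 of 24 promoters of the list (29.2%) against 0.119% of all promoters and 0.185% of those of tested genes. Of the 7, 2 belonged to genes that rose, Dnajc3 and Canx, the lectin chaperone calnexin. Canx rose by 0.34 ± 0.09 (adjusted p = 0.0089) but missed the threshold after rescaling (adjusted p = 0.16) and without hypothyroid replicate 3 (adjusted p = 0.019). Both are shown with the element in capitals.
Canx, chr11:50325775-50325843, minus strand: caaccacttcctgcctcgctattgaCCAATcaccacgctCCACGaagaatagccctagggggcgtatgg
Dnajc3, chr14:118937802-118937870, plus strand: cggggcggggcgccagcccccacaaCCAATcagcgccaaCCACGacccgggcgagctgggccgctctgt
The first capital base lies 145 and 105 bases before the start in Canx and Dnajc3.

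Markers of macrophages rose with few exceptions, 15 of 17 with 0 lower, a median of 1.84 (rescaled the same numbers, median 1.66) and summed levels of 103 to 145 RPKM in hypothyroid and 353 to 508 RPKM in hyperthyroid liver. Lyz2, lysozyme, was at 17.7, 12.4, 16.5 and 17.4 RPKM against 81, 88.3, 115 and 85.5 RPKM (2.52 ± 0.14, adjusted p = 6.5e-06). The resident macrophages of the liver, Kupffer cells, are marked by Timd4, which rose by 2.23 ± 0.21 (adjusted p = 6.4e-05), and Cd5l, which rose by 2.04 ± 0.18 (adjusted p = 4.1e-05). The list's other members, Lyz1 (0.89 ± 0.49, adjusted p = 0.16) and Ly6c2 (-0.04 ± 0.34, adjusted p = 0.93), did not pass. Neutrophil markers were low throughout, with 4 of 10 tested and 3 higher (rescaled, 2), and summed levels of 0.458 to 1.22 RPKM against 2.48 to 20.9 RPKM. S100a9, a calcium-binding protein of myeloid cells, was at 0.184, 0.124, 0.198 and 0.301 RPKM against 5.04, 9.41, 2.43 and 0.883 RPKM, highest in hyperthyroid replicate 2. The granule genes Ngp and Mpo were at or near 0 in every library.

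Markers of the other cells of the liver were counted in the same way. Of 19 genes of stellate cells and matrix 7 rose and 0 fell (median 0.68, with 2 and 0 and 0.49 rescaled), with summed levels of 106 to 143 against 175 to 203 RPKM. Of 15 endothelial markers 4 rose and 0 fell (median 0.30, with 2 and 0 and 0.10 rescaled) at 79.1 to 106 against 117 to 132 RPKM. Their share that rose and their median were near those of all genes. Of 8 cholangiocyte markers 1 rose and 1 fell (rescaled, 0 and 1, and neither without hypothyroid replicate 3) at 17.1 to 20.7 against 14.1 to 23.4 RPKM. Of 13 lymphocyte markers 0 rose and 0 fell by limma under either scaling, at 2.07 to 6.53 against 4.53 to 7.7 RPKM. The 6 globin genes rose as deposited, by 0.81 to 1.24, but 2 of the 6 did without hypothyroid replicate 3 and 0 after rescaling, whereas Alas2, the heme synthesis enzyme of red cell precursors, fell by 2.91 (SE 0.20, adjusted p = 1.6e-05).

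Acute phase proteins, made by hepatocytes in response to cytokines, rose in 8 of 23 cases with 0 lower and a median of 0.73 (rescaled, 4 and 0, median 0.53), and 5 rose without hypothyroid replicate 3. Saa2, serum amyloid A, was at 3.96, 7.01, 3.45 and 4.44 RPKM against 539, 1505, 229 and 69.9 RPKM. All 4 hyperthyroid livers were higher, over a wide range with replicate 2 at the top and replicate 4 at the bottom, and the log2 fold change of Saa2 was 6.18 ± 0.78 (adjusted p = 0.00029) and 5.46 without replicate 2 (adjusted p = 0.00028). Hp, haptoglobin, did not pass (1.03 ± 0.30, adjusted p = 0.02). Macrophage and neutrophil markers moved in the same libraries, and their part in these values was not tested.

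Interferon-stimulated genes rose in 10 of 26 cases with 0 lower and a median of 0.57 (rescaled, 8 and 0, median 0.37). Gbp3, a guanylate-binding protein of cell-autonomous defense, was at 1.03, 0.719, 0.571 and 0.841 RPKM against 9.81, 8.69, 3.82 and 4.7 RPKM (2.86 ± 0.31, adjusted p = 0.00011). Bst2, tetherin, which holds budding virus at the cell surface, was at 70.7, 80.8, 77.6 and 72.1 RPKM against 154, 125, 128 and 183 RPKM (0.95 ± 0.12, adjusted p = 0.00031). The groups of both genes were apart. Several standard readouts of interferon, named after their values were seen, did not pass, among them Ifit1 (-0.11 ± 0.35, adjusted p = 0.82) and Irf7 (-0.03 ± 0.26, adjusted p = 0.94). The letters GAAA, any 2 bases and GAAA again, the core of the interferon-stimulated response element, were on either strand of 13 of 21 promoters of the list (61.9%) against 3.44% of all promoters and 3.79% of those of tested genes, and in 6 of the 9 whose gene rose. These 6 are shown with the element in capitals, which also covers a second overlapping match in Oas1a, Gbp3 and Bst2; TTTC marks the opposite strand.
Oas1a, chr5:120907505-120907570, minus strand: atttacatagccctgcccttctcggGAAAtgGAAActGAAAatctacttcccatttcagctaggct
Oas3, chr5:120777700-120777759, minus strand: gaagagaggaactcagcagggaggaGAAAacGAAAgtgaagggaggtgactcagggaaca
Stat2, chr10:128270251-128270310, plus strand: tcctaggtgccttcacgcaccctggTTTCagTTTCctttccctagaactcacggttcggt
Gbp2, chr3:142620579-142620638, plus strand: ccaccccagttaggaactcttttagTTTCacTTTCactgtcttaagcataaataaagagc
Gbp3, chr3:142559974-142560039, plus strand: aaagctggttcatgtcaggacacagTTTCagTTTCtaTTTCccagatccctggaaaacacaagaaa
Bst2, chr8:71537562-71537627, minus strand: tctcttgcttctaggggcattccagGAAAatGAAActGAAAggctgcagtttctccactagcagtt
The first capital base lies 20, 75, 222, 59, 45 and 130 bases before the start in the order given. Of the genes shown, Oas1a rose by 1.51, Oas3 by 1.96 and Stat2 by 0.98 on the log2 scale, all past the threshold under both scalings, whereas Gbp2 (1.39 ± 0.31, adjusted p = 0.0053) missed it after rescaling (adjusted p = 0.017).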

How the data were processed

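RNA was made from whole liver, enriched for poly(A) and sequenced, each library having runs from 2 instrument models. The authors aligned reads to mm9 with STAR and deposited RPKM per RefSeq transcript from HOMER (versions not given in the sources used here); the submitters' notes also name DESeq2. Raw counts were not analysed here, so absolute depth is unknown and no counting interval is given. The 31370 transcripts gave 23813 genes, taking the first listed transcript of each of the 4272 genes with more than 1, and 1 unnamed transcript (at most 0.00076% of summed RPKM) was left out, so a gene read mainly from another transcript is understated. All per-sample columns of the table map to a labelled sample.

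Groups came from the sample titles. Genes reaching 0.1 RPKM in 4 or more of 8 libraries were kept, and log2(RPKM + 0.1) was fitted with limma 3.58.1 (R 4.3.3, variance trend), with Benjamini-Hochberg adjustment over all genes tested. Fold changes are on that scale and understate changes of low genes. On simulated data 98.5% of 200 genes changed by a log2 fold of 2 were recovered among 13941. The changed genes were not drawn from those with the most spread, and no shift in library composition was simulated. The recovery therefore does not cover the noisiest genes or the effect of scaling. Summaries used Python 3.11.15, pandas 2.3.3, numpy 2.4.6 and matplotlib 3.10.9. Strand use in counting is not given in the sources used here.

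The 56 gene lists, like the comparison itself, were chosen with earlier results of these data known. Genes were named if they were among the 12 largest fold changes in each direction that reached a mean of 5 RPKM, the 10 largest differences in RPKM, or, per list, up to 4 in each direction that reached a mean of 1 RPKM and the 2 most abundant, and Dio1, Thrsp, Xist and Ncor1 were checks; the first and second parts needed groups without overlap. Not every gene so named is described, and a few are not reported here. Thra, Thrb, Cux2, Srebf2, Cyp7a1, Papss2, Canx, Oas1a, Oas3, Ifit1, Irf7, Lyz1, Ly6c2, the cell cycle genes from Mki67 to Mcm2 and the imprinted and near-silent genes of the closing section fall outside this rule and were named after their values were seen. Promoters are RefSeq sequences of GRCm38.p6, and no coordinate was carried between builds. Alternatives were the pseudocount, the filter, scaling by the median of gene ratios, a replicate block, all 12 RNA libraries in 1 fit, no variance trend, the transcript with the highest mean, an adjusted p under 0.05 and each library left out.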

Additional observations from a re-analysis of the deposited data

Results flagged for a closer look

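In 5 of the genes given library by library, 1 replicate of a group of 4 stood away from the other 3 by more than Dixon's 95% limit, which chance exceeds in about 1 group in 20. Many such groups are given, so some values past the limit occur by chance alone. Dio1 was at 57.7 RPKM in hypothyroid replicate 3, the library that lay toward the hyperthyroid group. Gpd2 was at 28.1 RPKM and Ttr at 1840.0 RPKM in hyperthyroid replicate 4, Gpd2 below and Ttr above its companions. Acot3 was at 0.271 RPKM in hyperthyroid replicate 3, above its companions. Cdkn1a was at 6.21 RPKM in hypothyroid replicate 1, above its companions. None of these values reached the range of the other group.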

How the results depend on the processing

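The counts of genes past both thresholds, 1155 higher and 484 lower, moved by more than 1.5 times with a pseudocount of 1, to 575 higher and 319 lower, and the higher count did so with rescaled libraries and hypothyroid replicate 3 left out, an alternative chosen after seeing the data, to 752 higher beside 607 lower. A larger pseudocount shrinks the fold of low genes by construction. Leaving out 1 library at a time gave 994 to 1139 higher and 383 to 485 lower. Rescaling alone gave 802 higher and 641 lower, so the higher share of calls went from 70.5% to 55.6%. Replicate numbers did not pair the samples, with correlations of deviations between same-numbered libraries of 0.0587, -0.0672, 0.0796 and -0.0309, and a fit with the replicate number as a block gave 1055 higher and 451 lower. Of 307 named genes that passed, 0 changed direction under any alternative run, and 51 missed the threshold after rescaling, 95 with no filter, 34 with the block and 27 to 45 with 1 library left out. Low levels limit single genes, since 1 read weighs more in the shallower hyperthyroid libraries, and near-identical paralogs limit the major urinary protein, Cyp3a, glutathione transferase and globin genes.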

Other observations

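Several transcripts of the imprinted Dlk1-Dio3 region on chromosome 12, whose noncoding RNAs are made from the maternal copy, were low in hypothyroid and close to 0 in hyperthyroid liver. Meg3 was at 4.08, 1.74, 2.04 and 3.33 RPKM in hypothyroid and 0.062, 0.073, 0.041 and 0.02 RPKM in hyperthyroid replicates 1 to 4. Rian was at 3.38, 1.76, 2.42 and 2.86 RPKM against 0.056, 0.089, 0.079 and 0.064 RPKM. The log2 fold changes were -4.21 for Meg3 and -3.94 for Rian, with sizes limited by the 0.1 RPKM added to each value. Both were found by asking for at least 1 RPKM in every hypothyroid and under 0.1 RPKM in every hyperthyroid library. That rule leaves no overlap, and both genes passed the filter only through the hypothyroid libraries, so no p-value is given. Dio3, the deiodinase that inactivates thyroid hormone, was at 0.649, 0.103, 0.257 and 0.475 RPKM in hypothyroid liver and listed at 0 in all 4 hyperthyroid libraries. These genes were picked after their values were seen.

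The opposite pattern, under 0.1 RPKM in every hypothyroid and at least 1 RPKM in every hyperthyroid library, was found for 4 genes, Slc22a27, an organic anion transporter, Slc34a2, a phosphate transporter, Adcy10, the soluble adenylyl cyclase, and Chrdl2, a secreted antagonist of bone morphogenetic proteins. Hectd2os, an antisense transcript, was at 143, 99, 115 and 131 RPKM against 1.72, 1.67, 1.6 and 1.48 RPKM (-6.14 ± 0.11, adjusted p = 1.2e-08), and without known strand use its reads cannot be told apart from those of an overlapping gene.

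Further gene lists are given here. Of all genes tested 24.5% rose and 7.71% fell with a median of 0.233 (rescaled, 13.5% and 12.5%, median 0.04). Counts and medians near these values are no trait of a list. Complement genes rose in 7 and fell in 6 of 24 cases (median 0.233, with 5 and 7 and 0.067 rescaled). The 4 that rose by more than 1 were C1qa, C1qb, C1qc and Cfp, at 1.37 to 1.65, which macrophages are known to make. Macrophage markers rose in 15 of 17 cases in the same libraries, but C1qa, C1qb and C1qc belong to that list too. The 2 counts are therefore not independent, and the part of macrophages in these values was not tested. Coagulation factors rose in 2 and fell in 3 of 24 (median 0.189, with 0 and 5 and -0.016 rescaled). Of 17 genes of mitochondrial biogenesis and uncoupling 9 rose and 0 fell (median 0.554, with 3 and 0 and 0.351 rescaled). Of 7 genes of the pentose phosphate pathway 3 rose and 0 fell (median 0.386, with 1 and 0 and 0.182 rescaled), of 7 genes of ketogenesis 2 rose and 2 fell (median -0.208, with 1 and 3 and -0.414 rescaled), 1 of them without hypothyroid replicate 3, and of 21 genes of ribosome biogenesis and translation 3 rose and 0 fell (median 0.256, with 2 and 3 and 0.051 rescaled). Of 15 Cyp4 genes, which hydroxylate fatty acids, 2 rose and 6 fell (median -0.192, with 2 and 7 and -0.397 rescaled). Of 20 hepatocyte identity genes 1 rose and 4 fell (median -0.233, with 0 and 6 and -0.438 rescaled).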
